A study of Mus musculus with 8 samples.

Results

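The transcription factor genes that make and keep myeloid cells were described in RNA of sorted cells from the mouse central amygdala: Spi1, Ikzf1, Runx1, Cebpa, Cebpb, Irf8, Irf5, Sall1 and Mef2c. These 9 genes, of 20702 in the deposited quantification, are named macrophage and microglia factors and were chosen with earlier results of these data known. The estimated counts and TPM (a length-scaled abundance) of all RefSeq transcripts with each symbol were summed. The 9 genes take part in a stepwise programme. PU.1, the ETS factor encoded by Spi1, opens myeloid enhancers, Runx1 and Ikaros act in blood progenitors, and C/EBP and interferon regulatory factors join PU.1 at composite sites. In the brain, microglia are the resident macrophages, arise from yolk sac progenitors, and add Sall1 and Mef2c to this shared set.

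PKCd libraries (n = 4) came from male mice that carried PKC delta-type::Cre, and SST libraries (n = 4) from male mice that carried SST::Cre. Both crosses shared the Rosa::loxP-STOP-loxP-td-Tomato reporter, which stays on in any cell whose lineage has expressed Cre. PKCd replicates 1 and 2 were 9 weeks old and replicates 3 and 4 were 18 weeks old, while SST replicates 1 and 2 were 8 weeks old and replicates 3 and 4 were 20 weeks old. The mice received no treatment named in the labels, each library held about 1000 red cells from both central amygdalae of 1 mouse, and p-values measure the spread between mice, sorting and amplification together. The labels name a sort on the red reporter and no step that removes microglia. In all samples below, values are given in the order of replicates 1 to 4.

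The libraries held 964361 to 18242496 estimated counts in the PKCd group and 1560934 to 16009560 in the SST group, with the lower totals in the older mice of each, so that age and depth cannot be told apart. Prkcd stood at 106.5 to 225.7 TPM in PKCd and 0 to 30.2 TPM in SST libraries. Sst stood at 0.209, 222.7, 4.33 and 13.7 TPM in PKCd and 116.3 to 296.2 TPM in SST libraries, so the library labelled PKCd replicate 2 goes against its label for Sst. The series' title calls the sorted cells neurons, but neuron markers were not the leading ones: 13 of them summed to 564.3, 610.8, 155.6 and 126.3 TPM in PKCd and 141.5, 567.7, 182.2 and 160.2 TPM in SST libraries, with up to 6 of the 13 at 0 in a PKCd library and up to 3 in an SST library. Against these, 14 microglia markers summed to 36299, 29555, 48360 and 29726 TPM in PKCd and 5621, 1568, 1310 and 467.4 TPM in SST libraries, and none of the 14 was at 0 in any library. The sums of microglia markers exceeded the neuron sums in every library, and oligodendrocyte lineage markers, at 11700 to 29443 TPM in PKCd and 10101 to 61004 TPM in SST libraries, exceeded them too. The libraries are therefore called by their labels and not by a cell type. In such bulk samples, fewer cells of a type and less RNA per cell cannot be told apart.

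Promoter sequences are shown for 3 members to which the results return: Irf8, which had the highest mean in PKCd libraries, Runx1, whose estimated counts were divided between transcripts of separate start sites, and Cebpb, which departed from the rest. They come from RefSeq (GRCm38.p6) and span 250 bases before to 50 bases after the annotated start, written 5′ to 3′ on the gene's strand. Capitals mark a match to the letters TTCNNNGAA, the GAS element bound by STAT factors, in Irf8, and to TGTGGT, the RUNX core, in Runx1, where it reads ACCACA because the match is on the opposite strand. The Irf8 window is chr8:120736108-120736407, plus strand. The distal Runx1 window is chr16:92826025-92826324 and the proximal one chr16:92697280-92697579, both on the minus strand. The Cebpb window is chr2:167688665-167688964, plus strand.
Irf8: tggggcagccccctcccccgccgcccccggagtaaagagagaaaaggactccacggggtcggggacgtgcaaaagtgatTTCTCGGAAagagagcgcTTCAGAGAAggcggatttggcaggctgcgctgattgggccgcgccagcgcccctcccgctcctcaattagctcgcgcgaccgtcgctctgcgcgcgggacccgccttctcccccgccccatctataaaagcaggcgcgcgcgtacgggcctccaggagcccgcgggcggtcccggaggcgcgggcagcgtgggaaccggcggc
Runx1 distal: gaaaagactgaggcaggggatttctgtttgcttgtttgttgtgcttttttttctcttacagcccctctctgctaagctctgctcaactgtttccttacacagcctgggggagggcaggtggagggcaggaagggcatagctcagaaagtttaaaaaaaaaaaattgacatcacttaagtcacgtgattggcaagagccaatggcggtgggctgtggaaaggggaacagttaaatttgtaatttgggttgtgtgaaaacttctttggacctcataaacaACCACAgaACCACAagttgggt
Runx1 proximal: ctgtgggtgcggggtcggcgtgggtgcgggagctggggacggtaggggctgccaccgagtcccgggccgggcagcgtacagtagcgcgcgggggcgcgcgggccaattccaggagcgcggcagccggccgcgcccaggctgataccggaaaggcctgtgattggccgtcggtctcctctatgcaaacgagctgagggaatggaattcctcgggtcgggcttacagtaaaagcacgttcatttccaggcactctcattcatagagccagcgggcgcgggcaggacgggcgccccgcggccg
Cebpb: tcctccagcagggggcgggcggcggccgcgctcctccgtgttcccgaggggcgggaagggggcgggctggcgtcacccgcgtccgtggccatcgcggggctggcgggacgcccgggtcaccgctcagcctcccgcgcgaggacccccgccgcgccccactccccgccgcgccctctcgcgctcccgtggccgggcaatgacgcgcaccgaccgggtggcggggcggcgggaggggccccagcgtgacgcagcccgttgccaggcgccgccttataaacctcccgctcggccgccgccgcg

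The table of promoters held 15 windows of 8 members. The GAS letters were found in 3 of them and in 8.30% of all 32851 mouse windows of the same length. Irf8 had both of its matches in the printed window, 171 and 153 bases before the start, and the other windows with a match belonged to Ikzf1 and Mef2c. The RUNX core was in 1 member window, the distal one of Runx1, at 28 and 36 bases after the start, and in 16.8% of all windows. The PU.1 core GAGGAAG was in 1 member window, of Mef2c, and in 13.6% of all. The letters TTGCNNAA (C/EBP, 10.8% of all windows), GAAA, any 2 bases and GAAA (interferon-stimulated response element, 3.44%) and CTA, any 4 bases and TAG (MEF2, 3.69%) were in none of the 15. Both strands were searched, palindromic letters were counted once, and no match overlapped a match of another motif. These are matches of letters in a window and say nothing of binding.

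The central comparison was between PKCd and SST libraries. All 9 genes had a higher mean in PKCd libraries, and for 6 of them (Spi1, Ikzf1, Cebpa, Irf8, Irf5 and Sall1) every PKCd library lay above every SST library, a separation that 3.88% of the 11328 tested genes showed in this direction. None lay wholly below SST, as 3.05% of tested genes did. The ratio of mean TPM was above 4 for 8 of the 9 and reached 72.0 for Irf8. None passed the quasi-likelihood test of edgeR over all genes at an adjusted p of 0.05, where 0.282% of tested genes were called higher. At an unadjusted p under 0.05 edgeR took 7 of the 9, all higher, where 4.33% of tested genes were higher and 6.67% differed in either direction. DESeq2 called 7 of the 9 higher, against 3.2% of tested genes, and none lower, against 0.812%. Without a filter on low counts edgeR called 4 (1.29% of genes), limma on log2(TPM + 1) called 3 (1.21%), and limma on log2(TPM + 0.1) called 1 (0.583%). The median log2 fold change of the 9 was 3.54, and that of all tested genes -0.08. The 9 were chosen with earlier results of these data known, so their shares and median are no independent evidence.

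**Figure D1:**
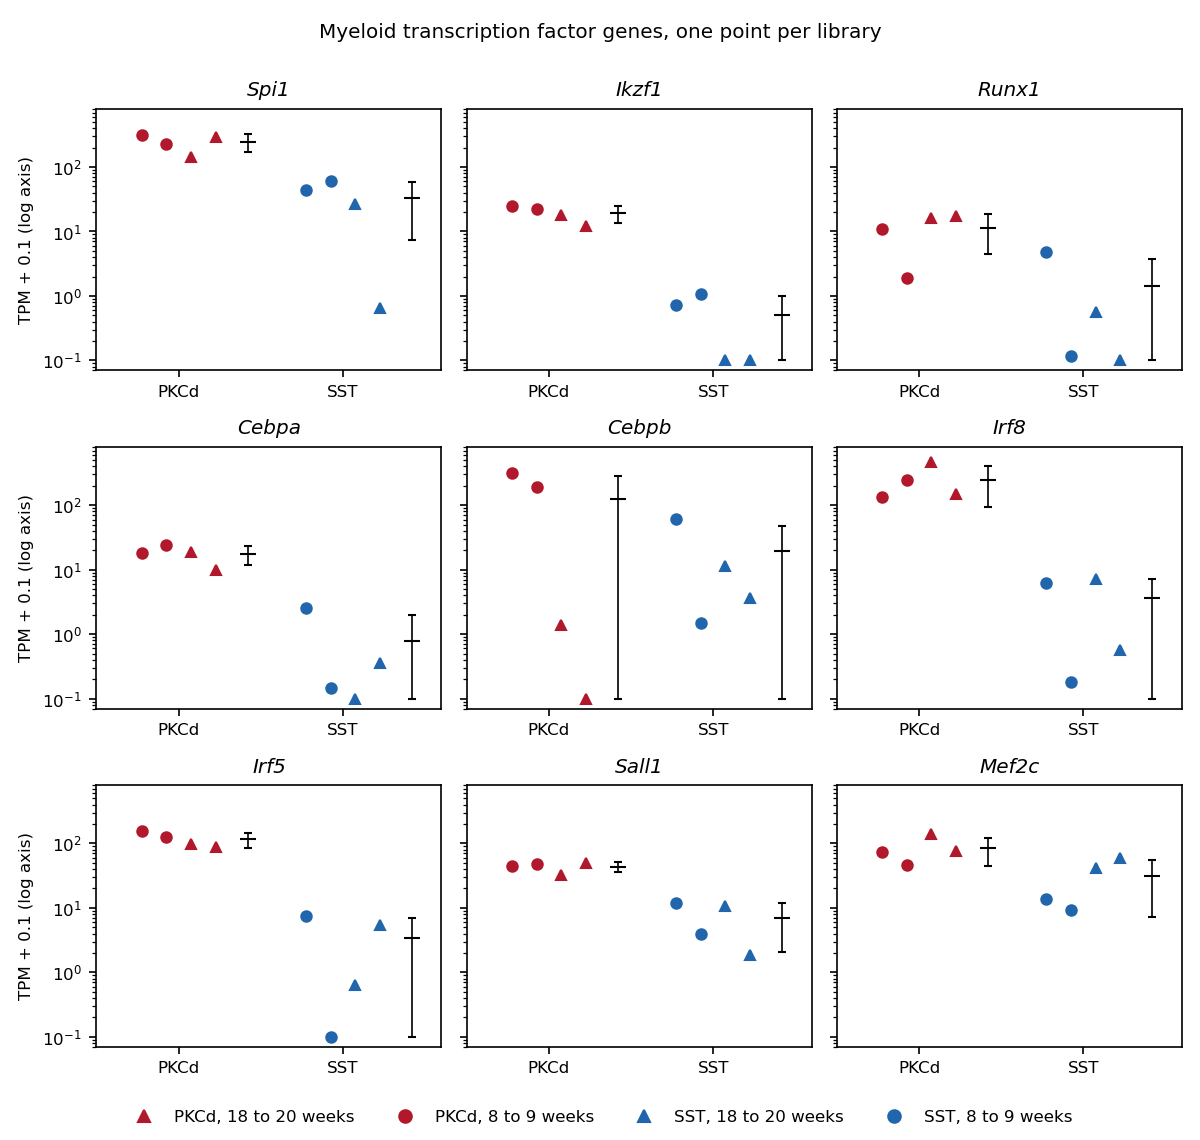
TPM + 0.1 on a log axis for the 9 genes, with 1 point per library (PKCd red, SST blue; triangles are 18 to 20 weeks, circles 8 to 9 weeks). Black marks are the mean ± SD of TPM, with the bar cut at the axis value of 0.1 where the mean minus the SD is below 0; red and blue points do not overlap for Spi1, Ikzf1, Cebpa, Irf8, Irf5 and Sall1, and overlap for Runx1, Mef2c and Cebpb.

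Among the factors of early blood and myeloid commitment, Spi1 (chromosome 2, 91082374 to 91115759, GRCm38.p6) encodes PU.1, without which no macrophages form. It had 314.9, 231.3, 143.4 and 288.1 TPM in the PKCd group, against 43.4, 60.7, 27.0 and 0.553 TPM in the SST group. The lowest PKCd library was 2.36 times the highest SST library, and SST replicate 4 rested on 1 count. The PKCd mean was 244.4 ± 75.8 TPM and the SST mean 32.9 ± 25.6 TPM (SD, n = 4 each), a ratio of 7.42. edgeR put the log2 fold change at 3.24 ± 0.92 (SE; adjusted p 0.298). DESeq2 gave an adjusted p of 0.00858, and over 20 alternatives the adjusted p lay between 0.00858 and 0.782. Spi1 was the most abundant of the 9 in SST libraries by mean TPM. Among all 20702 genes its TPM stood at the 93.9th to 97.5th percentile in PKCd libraries and the 41.4th to 86.3rd percentile in SST libraries.

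Ikzf1 (chromosome 11, 11684962 to 11772930) encodes Ikaros, a zinc finger factor of lymphoid and myeloid progenitors that microglia also express. It had 24.5, 22.0, 17.8 and 12.1 TPM in the PKCd group, against 0.627, 0.985, 0 and 0 TPM in the SST group. No SST library reached 1 TPM, and the lowest PKCd library was 12.3 times the highest SST library. The 2 zeros allow up to 0.643 TPM in SST replicate 3 and 0.381 TPM in SST replicate 4. PKCd libraries averaged 19.1 ± 5.41 TPM and SST libraries 0.403 ± 0.488 TPM (SD, n = 4 each). The log2 fold change of 6.43 ± 1.49 (SE) was the largest of the 9, with an adjusted p of 0.164 in edgeR. DESeq2 gave an adjusted p of 2.27e-07, and over the alternatives it ranged up to 0.782. Of its 6 transcripts, a single one of 4736 bases held all counts in PKCd replicates 2 and 4 and in SST replicates 1 and 2. In PKCd replicate 3 the 49 counts lay on transcripts of 4859 and 5190 bases, and in PKCd replicate 1 the 1426 counts were spread over 5. How reads were divided among such similar transcripts is an estimate of the authors' tool, so only the sum is compared here.

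Runx1 (chromosome 16, 92601466 to 92826074), a runt factor needed for blood stem cells and yolk sac progenitors to arise, was low throughout. It had 10.6, 1.80, 15.9 and 17.3 TPM in the PKCd group, against 4.76, 0.0162, 0.471 and 0 TPM in the SST group. The groups overlapped, since PKCd replicate 2 lay below SST replicate 1, and the other 3 SST libraries held 4 counts in all. Averages were 11.4 ± 7.02 TPM for PKCd and 1.31 ± 2.31 TPM for SST (SD, n = 4 each). The edgeR estimate was 3.54 ± 2.19 (log2, SE; adjusted p 0.853), and no alternative called it (0.219 to 1.00).

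Runx1 is transcribed from a distal start, used in definitive blood cells, and from a proximal start further downstream. The distal share of Runx1 estimated counts was 24.6%, 93.1%, 0% and 100% in PKCd libraries, of 834.2, 73, 62 and 85 counts. In SST libraries it was 100% of 289 counts in replicate 1, 0% of 1 count in replicate 2 and 0% of 3 counts in replicate 3, while replicate 4 had no counts. These counts are the division that the authors' tool made among overlapping transcripts, and in most libraries it gave all or nearly all to a single start. As for Ikzf1 it is an estimate, so the shares describe the deposited values and are not read as use of a start. No test was made, as in the SST group only replicate 1 held more than 3 counts. The distal window printed above was the one with the paired RUNX letters.

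**Figure D2:**
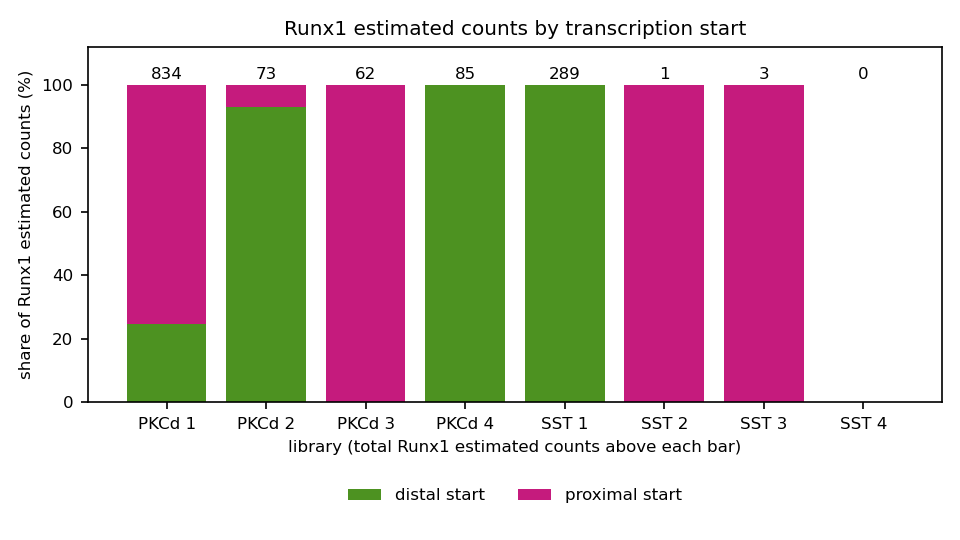
Share of Runx1 estimated counts (y axis, %) from transcripts of the distal start (green) and of the proximal start (magenta) in each library, with the total Runx1 count above each bar. PKCd replicate 4 and SST replicate 1 were at 100% distal, PKCd replicate 3 at 100% proximal, and SST replicates 2 to 4 held 1, 3 and 0 counts.

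The C/EBP factors are basic leucine zipper proteins. Cebpa (chromosome 7, 35119293 to 35121928) commits progenitors to the granulocyte and macrophage lines. It had 17.8, 24.4, 18.5 and 9.90 TPM in the PKCd group, against 2.44, 0.0447, 0 and 0.26 TPM in the SST group. The groups did not overlap, with the lowest PKCd library 4.05 times the highest SST library, and 3 of the 4 SST libraries were below 1 TPM. The PKCd mean was 17.6 ± 5.96 TPM and the SST mean 0.686 ± 1.18 TPM (SD, n = 4 each), a ratio of 25.7. Its log2 fold change in edgeR came to 4.93 ± 1.88 (SE; adjusted p 0.574). DESeq2, at 0.0187, was the single alternative of 20 that called it, and the others ranged up to 1.00.

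Cebpb (chromosome 2, 167688915 to 167690432), a C/EBP factor of inflammatory and acute phase responses, did not follow the others. It had 313.1, 192.8, 1.31 and 0 TPM in the PKCd group, against 62.1, 1.40, 11.2 and 3.55 TPM in the SST group. The PKCd libraries held both the highest and the lowest values, with the 9 week mice on top and the 18 week mice at 1 and 0 counts. Irf8 had 728 and 358 counts in the same libraries, and the part of depth in the Cebpb values was not tested. A count of 0 allows up to 2.49 TPM in PKCd replicate 4. PKCd libraries averaged 126.8 ± 153.7 TPM and SST libraries 19.6 ± 28.7 TPM (SD, n = 4 each), so the SD exceeded the mean in each group. In edgeR the fitted log2 difference was 0.34 ± 1.84 (SE; adjusted p 0.989). Over 18 alternatives the estimate ran from -1.04 without SST replicate 2 to 4.54 in limma-voom. It was negative in 3 of them, 2.67 in the younger mice alone and 2.45 with no age term, and none called it (adjusted p 0.181 to 1.00).

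Irf8 and Irf5 are interferon regulatory factors, and Irf8 held the widest separation of the 9. Irf8 (chromosome 8, 120736358 to 120756694) encodes the partner of PU.1 that microglia and monocytes need to develop. It had 132.2, 245.8, 474.0 and 147.9 TPM in the PKCd group, against 6.15, 0.0824, 7.19 and 0.474 TPM in the SST group. The lowest PKCd library was 18.4 times the highest SST library, and the SST values rested on 183, 2, 18 and 2 counts. Averages were 250 ± 157.6 TPM for PKCd and 3.47 ± 3.72 TPM for SST (SD, n = 4 each), a ratio of 72.0. edgeR estimated 6.06 ± 1.26 (log2 fold change, SE), and its adjusted p of 0.105 was the lowest of the 9. It was called in 4 of 20 alternatives, at 2.72e-12 with no filter, 1.16e-06 in DESeq2, 0.00447 with log2(TPM + 1) and 0.0351 with log2(TPM + 0.1), and the others ranged up to 0.782. With any 1 library left out, the log2 fold change was between 5.54 and 7.85 and the adjusted p between 0.0589 and 0.284.

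Irf5 (chromosome 6, 29526130 to 29541869) acts below Toll-like receptors and drives inflammatory cytokine genes. It had 154.9, 127.3, 96.4 and 87.0 TPM in the PKCd group, against 7.37, 0, 0.531 and 5.35 TPM in the SST group. The lowest PKCd library was 11.8 times the highest SST library, and SST replicate 2, with 16009560 estimated counts in all, held no Irf5 count, which allows up to 0.162 TPM. The PKCd mean was 116.4 ± 30.9 TPM and the SST mean 3.31 ± 3.62 TPM (SD, n = 4 each), a ratio of 35.1. On the log2 scale edgeR gave 4.90 ± 1.36 (SE; adjusted p 0.290). It was called by 3 of 20 alternatives (DESeq2 0.00229, no filter 9.53e-05, log2(TPM + 1) 0.0157), and the others ranged up to 0.857.

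Sall1 and Mef2c are factors that set brain microglia apart from other macrophages, and both also work in other tissues, Sall1 in the kidney and Mef2c in muscle and neurons. Sall1 (chromosome 8, 89027242 to 89044162), a spalt zinc finger repressor, had 44.3, 48.4, 32.5 and 48.8 TPM in the PKCd group, against 11.99, 3.77, 10.5 and 1.74 TPM in the SST group. The groups did not overlap, and no library of either group was below 1 TPM. It was the steadiest of the 9 in PKCd libraries, with the highest value 1.501 times the lowest. PKCd libraries averaged 43.5 ± 7.604 TPM and SST libraries 6.99 ± 5.00 TPM (SD, n = 4 each), a ratio of 6.22. edgeR put the log2 fold change at 2.61 ± 0.76 (SE; adjusted p 0.313). DESeq2 gave an adjusted p of 0.0121, and over the alternatives it ranged up to 0.9797.

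Mef2c (chromosome 13, 83504017 to 83667079), a MADS box factor that restrains microglial inflammatory responses, had the smallest ratio of means, 2.71. It had 74.2, 46.2, 137.9 and 76.3 TPM in the PKCd group, against 13.8, 9.05, 41.2 and 59.5 TPM in the SST group. The groups overlapped, as SST replicate 4 lay above PKCd replicate 2, and in SST the 20 week libraries lay above the 8 week ones. Averages were 83.6 ± 38.7 TPM for PKCd and 30.9 ± 23.8 TPM for SST (SD, n = 4 each). Its log2 fold change in edgeR came to 1.70 ± 0.53 (SE; adjusted p 0.386). DESeq2 gave an adjusted p of 0.0335, and over the alternatives it ranged up to 0.824. The shorter of its 2 transcripts, 6325 bases long, took 17.4%, 34.9%, 15.9% and 36.0% of Mef2c TPM in PKCd libraries and 21.9%, 0%, 21.2% and 4.07% in SST libraries. These shares overlapped, and an exact two-sided permutation test gave p = 0.171, where 4 against 4 libraries cannot go below 0.0286. As for Ikzf1, the division between transcripts is an estimate of the authors' tool. The shares and their test thus describe the deposited values and are not read as transcript use.

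**Figure D3:**
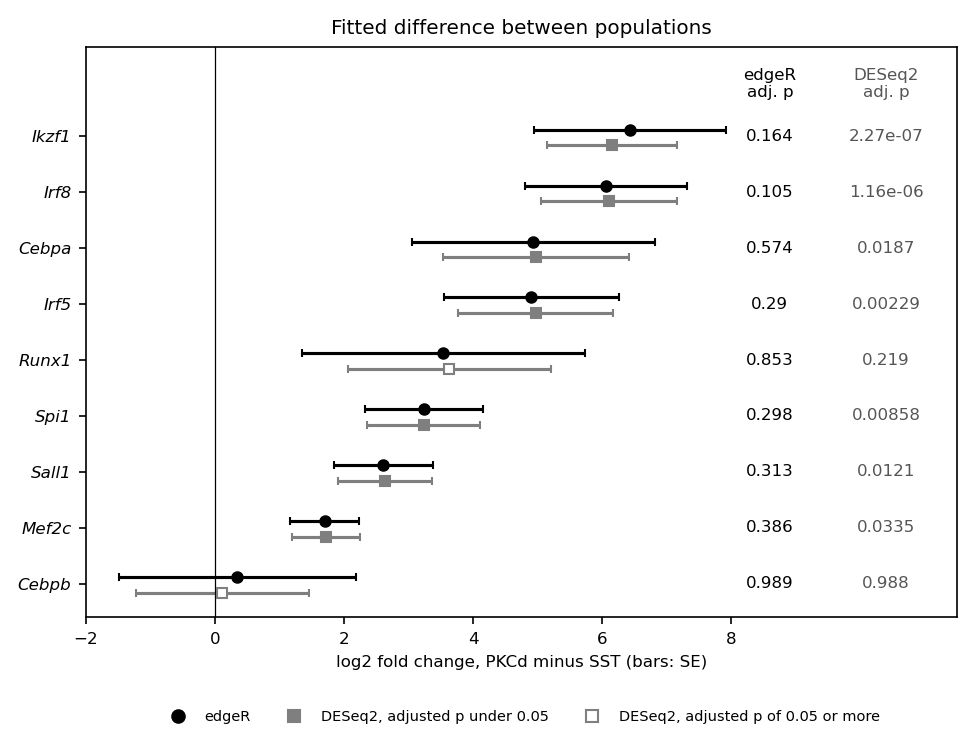
Log2 fold change, PKCd minus SST (x axis), for the 9 genes in edgeR (black circles) and DESeq2 (grey squares, filled where the adjusted p is under 0.05), with bars of 1 SE and adjusted p-values at the right. Estimates of the tools lie close together, from about 6 for Ikzf1 and Irf8 to near 0 for Cebpb, while the adjusted p-values differ.

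Within each age class the 8 members tested in both were higher in PKCd mice, which the lack of overlap requires for 6 of them. In edgeR on the older mice alone, the log2 fold change of 8 members was between 1.12 (Mef2c) and 9.16 (Ikzf1), with adjusted p-values of 0.316 or more. Cebpb had too few counts there to be tested and its means ran the other way, at 0.656 TPM in PKCd and 7.39 TPM in SST mice (n = 2 each). In the younger mice alone, the 9 were between 1.29 (Runx1) and 5.60 (Irf8), with adjusted p-values of 0.782 or more. No gene of the whole table was called within a single age class. PKCd replicate 2 had Sst within the range of SST libraries. Without that library, the 9 lay between 0.25 and 7.31 and the lowest adjusted p was 0.232. Over the alternatives together, the log2 fold change of Ikzf1 ran from 3.86 with log2(TPM + 1) to 9.16 in the older mice, that of Irf5 from 4.50 without SST replicate 2 to 7.17 in limma-voom, and that of Runx1 from 1.29 in the younger mice to 6.99 without SST replicate 1. The ranges were 2.39 to 4.11 for Spi1, 3.61 to 7.47 for Cebpa, 5.54 to 7.85 for Irf8, 2.26 to 3.26 for Sall1 and 1.12 to 2.28 for Mef2c. Without SST replicate 1, the estimate for Irf5 was 6.47, and without PKCd replicate 1 that for Ikzf1 was 7.40.

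The order of levels among the 9 differed between the groups. By mean TPM, which is per length, PKCd libraries ran Irf8, Spi1, Cebpb, Irf5, Mef2c, Sall1, Ikzf1, Cebpa and Runx1 from high to low. SST libraries ran Spi1, Mef2c, Cebpb, Sall1, Irf8, Irf5, Runx1, Cebpa and Ikzf1. In PKCd libraries, Spi1 stood above Irf5, Irf5 above Sall1, and Sall1 above Ikzf1 in 4 of 4. Of the 8 pairs of neighbours in that order, Spi1 over Cebpb and Sall1 over Ikzf1 held in 4 of 4. Irf5 over Mef2c, Mef2c over Sall1 and Cebpa over Runx1 held in 3 of 4, and Irf8 over Spi1, Cebpb over Irf5 and Ikzf1 over Cebpa in 2 of 4. In SST libraries, Mef2c stood above Sall1 and Sall1 above Irf8 in 4 of 4, while Mef2c stood above Cebpb, Cebpb above Sall1 and Irf5 above Runx1 in 3 of 4, and Spi1 above Mef2c, Irf8 above Irf5 and Runx1 above Cebpa in 2 of 4. Cebpa and Ikzf1 were both at 0 in SST replicate 3. Irf8 and Sall1 exchanged places, with Irf8 above Sall1 in 4 of 4 PKCd libraries and below it in 4 of 4 SST libraries. This exchange was noticed in the values and was not tested.

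Microglia markers were also higher in PKCd libraries, and their sums there lay above those in all SST libraries. Set against that sum, none of the 9 had all PKCd libraries above all SST libraries. Per 1000 TPM of microglia markers, Spi1 stood at 8.67, 7.82, 2.97 and 9.69 TPM in PKCd and 7.73, 38.8, 20.6 and 1.18 TPM in SST libraries, and the groups overlapped. Irf8 stood at 3.64, 8.32, 9.80 and 4.98 in PKCd and 1.09, 0.0526, 5.49 and 1.01 in SST libraries, with SST replicate 3 inside the PKCd range. Sall1 took the opposite order, at 1.22, 1.64, 0.672 and 1.64 in PKCd and 2.13, 2.41, 7.98 and 3.71 in SST libraries. All SST libraries thus lay above all PKCd libraries. The divisor was 29555 to 48360 TPM in PKCd and 467.4 to 5621 TPM in SST libraries. A gene of equal TPM in all libraries would take this order too, and the share of all genes that do was not counted. Mef2c stood at 2.05, 1.56, 2.85 and 2.57 in PKCd and 2.45, 5.77, 31.5 and 127.4 in SST libraries, and only SST replicate 1 lay within the PKCd range. Ikzf1, at 0.368 to 0.744 in PKCd and 0 to 0.628 in SST libraries, overlapped, as did Runx1, Cebpa, Cebpb and Irf5. These ratios were formed after the values were seen and carry no test, and the part of microglial RNA in the differences was not tested.

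**Figure D4:**
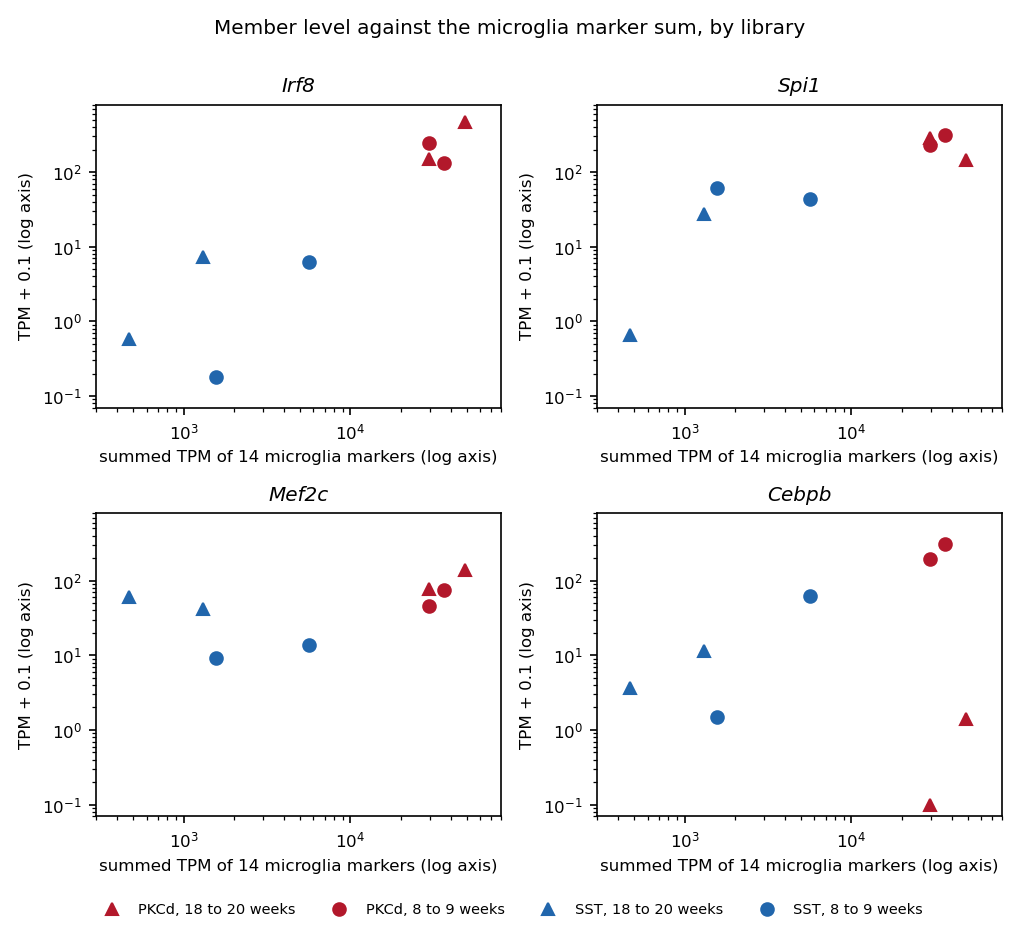
TPM + 0.1 of Irf8, Spi1, Mef2c and Cebpb (y axis, log) against the summed TPM of 14 microglia markers (x axis, log), with 1 point per library (PKCd red, SST blue; triangles 18 to 20 weeks, circles 8 to 9 weeks). PKCd libraries lie at 29555 to 48360 TPM of markers and SST libraries at 467.4 to 5621; Mef2c stays at 9.05 to 59.5 TPM in SST libraries, and Cebpb is at 1.31 and 0 TPM in the older PKCd mice despite high marker sums.

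Lists of related genes placed the 9 in context. Of 26 relatives in the same families (other Ikaros, ETS, IRF, RUNX, SALL, MEF2 and C/EBP genes), 16 could be tested and 0 passed in edgeR or DESeq2. At an unadjusted p under 0.05 edgeR took 1 of the 16, higher in PKCd libraries, as were 4.33% of all tested genes. Their median log2 fold change was 0.31, against -0.08 for all tested genes. Mef2a, a close relative of Mef2c, had 68.9 ± 2.87 TPM in PKCd and 27.3 ± 10.5 TPM in SST samples (SD, n = 4 each; adjusted p 0.556 in edgeR). It was the only 1 of the 16 tested relatives whose groups did not overlap, a separation that 3.88% of all tested genes showed in this direction. Cebpd, a C/EBP factor of acute responses, averaged 36.6 ± 34.6 TPM in PKCd and 6.79 ± 5.10 TPM in SST libraries (adjusted p 0.810 in edgeR). Cbfb, the partner that every RUNX protein binds DNA with, averaged 42.8 ± 15.3 TPM in PKCd and 61.2 ± 18.7 TPM in SST libraries, and its value is given for that role.

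Of 30 other factors of macrophages and microglia, 27 were tested, 0 passed in edgeR and 4 were called higher by DESeq2, against 3.2% of all tested genes. At an unadjusted p under 0.05 edgeR took 9, all higher in PKCd libraries, as were 4.33% of all tested genes. In 6 every PKCd library lay above every SST library, against 3.88% of all tested genes. The median was 1.85. Tfe3, a regulator of lysosomal genes, averaged 71.4 ± 38.3 TPM in PKCd and 2.92 ± 5.66 TPM in SST libraries, with a log2 fold change of 6.26 and an adjusted p of 0.302 in edgeR (SD, n = 4 each).

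A further list held genes that textbooks give as targets of PU.1, C/EBP and IRF factors. Of 18 listed, 16 were tested, 2 were higher in edgeR and 11 in DESeq2, and 0 were lower in either. Of all tested genes, edgeR called 0.282% higher and DESeq2 3.2%. In 12 every PKCd library lay above every SST library, against 3.88% of all tested genes. The median log2 fold change was 4.198. Csf3r, the receptor for granulocyte colony-stimulating factor and a target of C/EBP and PU.1, had 94.7 ± 27.5 TPM in PKCd and 2.11 ± 0.985 TPM in SST samples (SD, n = 4 each), and edgeR gave 5.71 ± 0.62 (log2, SE; adjusted p 0.00484). The survival receptor of macrophages, Csf1r, had 1610 ± 746.8 TPM in PKCd and 49.1 ± 42.2 TPM in SST libraries (adjusted p 0.0344 in edgeR). Of the 14 microglia markers, 4 were higher in edgeR (Fcrls, Tmem119, Cx3cr1 and C1qa) and 13 in DESeq2, against the same 0.282% and 3.2% of all tested genes. Their median log2 fold change was 4.36. The myeloid targets and microglia markers were chosen with earlier results of these samples known, so their direction is no independent evidence.

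**Figure D5:**
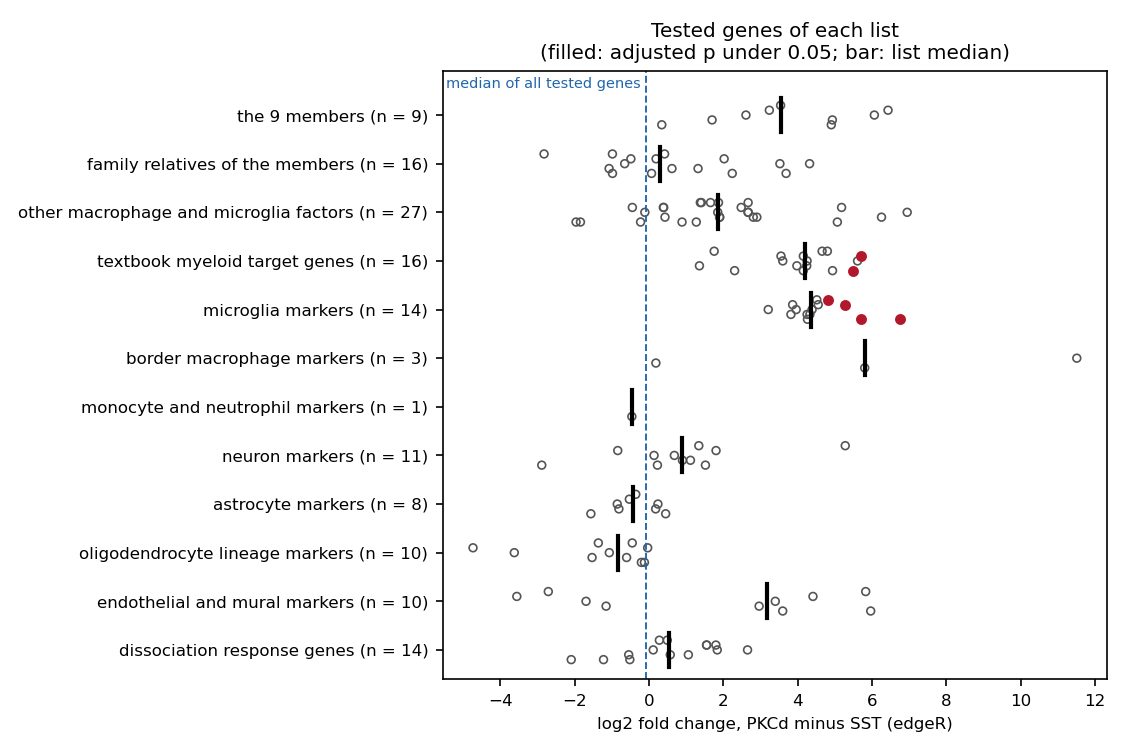
Log2 fold change, PKCd minus SST in edgeR (x axis), of each tested gene of the 9 members and of 11 lists (rows). Filled red points had an adjusted p under 0.05, black bars are list medians, and the dashed line is the median of all tested genes, -0.08; the point farthest right is Pf4, which had 0 in all SST libraries, so that its fitted value depends on the prior count.

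Each list of markers of other immune cells summed to less than the microglia markers in every library. The 9 border macrophage markers summed to 19.0 to 521.4 TPM in PKCd and 0.111 to 3.61 TPM in SST libraries. Of these, Pf4 stood at 12.4, 382.2, 35.6 and 56.4 TPM in PKCd libraries and was at 0 in all SST libraries (adjusted p 0.240 in edgeR), and Mrc1 averaged 5.46 ± 9.41 TPM in PKCd and 0.153 ± 0.306 TPM in SST samples (SD, n = 4 each). Markers of this list with too few counts to be tested went both ways. Cbr2 stood at 0, 81.0, 0 and 25.3 TPM, F13a1 at 2.70, 7.66, 0 and 13.5 TPM and Ccl24 at 3.14, 4.20, 15.9 and 0 TPM in PKCd libraries, and each was below 0.25 TPM in every SST library. Ms4a7 stood at 24.6 TPM in PKCd replicate 2 and was at 0 in the other 7 libraries. Lyve1 was at 0 in every PKCd library and at 0.521 TPM in SST replicate 4, and Cd209f was at 0 in all 8. For Cd163 the PKCd average was 0.996 ± 0.907 TPM and the SST average 1.12 ± 1.69 TPM (SD, n = 4 each). The 12 monocyte and neutrophil markers summed to 9.81 to 29.3 TPM in PKCd and 16.9 to 211.3 TPM in SST libraries. Their highest sums, 211.3 and 95.3 TPM, were in SST replicates 3 and 4, where microglia markers summed to 1310 and 467.4 TPM. The 11 lymphocyte markers that were measured summed to 1.74 to 53.0 TPM in PKCd and 1.24 to 4.87 TPM in SST libraries. Markers of other brain cells were present in both groups. Astrocyte markers summed to 450.7 to 4067 TPM in PKCd and 3129 to 7038 TPM in SST libraries. Endothelial and mural markers summed to 886.4 to 4441 TPM in PKCd and 1957 to 9909 TPM in SST libraries. Most of this sum in SST libraries was Vtn, which averaged 5479 TPM there and 1431 TPM in PKCd libraries. By gene this list went both ways, with a median log2 fold change of 3.18 in edgeR and 6 of 10 positive. DESeq2 called Tek (adjusted p 2.98e-05), Kdr (0.00275) and Cdh5 (0.029) higher in PKCd libraries, and Acta2 (0.0408) and Vtn (0.0334) lower. In edgeR none of the genes of these 5 lists, the oligodendrocyte lineage list or the neuron list passed. At an unadjusted p under 0.05 it took 1 of 3 tested border macrophage genes and 3 of 10 endothelial and mural genes as higher. It took 1 of 8 astrocyte, 2 of 10 oligodendrocyte lineage and 3 of 10 endothelial and mural genes as lower. Of all tested genes, 4.33% were higher and 6.67% differed in either direction at this threshold. DESeq2 called 1 border macrophage gene and 3 endothelial and mural genes higher, against 3.2% of all tested genes. It called 1 oligodendrocyte lineage gene and 2 endothelial and mural genes lower, against 0.812%. The part of these cells in the members' values was not tested.

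The genes most like a member in pattern were listed for Spi1 and Mef2c, by Pearson's r of log2(TPM + 1) over the 8 libraries. For Spi1 they were Man1a2 (r = 0.969), Aif1 (0.964), Lst1 (0.952), Trem2 (0.949) and Tyrobp (0.949), of which Aif1 and Trem2 belong to the microglia markers. For Mef2c they were Dglucy (0.984), Plod3 (0.977), Aar2 (0.974), Lipa (0.974) and Psme3 (0.971), none of them on the microglia list. Like Mef2c, Lipa, the lysosomal acid lipase, had its lower values in the younger SST mice, at 67.9, 39.5, 78.7 and 77.6 TPM in PKCd and 20.0, 13.6, 42.4 and 66.0 TPM in SST libraries. The 8 points fall into 2 populations that differ in level and into 2 classes of depth, so r describes likeness in these libraries only.

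The older mice were compared with the younger in the same model. None of the 9 passed in edgeR, where 0.0265% of tested genes were called higher and 0.0265% lower, and 2 of the 9 had an unadjusted p under 0.05, against 8.35% of all tested genes. The median log2 fold change, older minus younger, was -1.13 for the 9 and -0.16 for all tested genes. Cebpb had the largest difference. It averaged 0.656 TPM in the older and 253.0 TPM in the younger PKCd mice, and 7.39 TPM in the older and 31.7 TPM in the younger SST mice (n = 2 each). None of the 9 had all older below all younger libraries, which 3.53% of tested genes did. For Cebpb they overlapped since SST replicate 2, a younger mouse, had 1.40 TPM. In edgeR the fitted log2 difference was -5.22 ± 1.74 (SE; adjusted p 0.426). Cebpb was called lower in the older mice by DESeq2 (adjusted p 0.00486, 2.75% of genes called) and by edgeR with no filter (0.00261, 0.79% of genes called), and the other alternatives ranged up to 0.774.

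Mef2c differed in the other direction, at 107.1 TPM in the older and 60.2 TPM in the younger PKCd mice and 50.4 TPM in the older and 11.4 TPM in the younger SST mice (n = 2 each). Its log2 fold change was 1.22 ± 0.52 (SE), positive in all 16 alternatives, with an adjusted p of 0.561 in edgeR (0.132 to 0.843 in the alternatives). The other 7 had adjusted p-values of 0.673 or more in edgeR. Dissociation response genes, 14 immediate early and heat shock genes, summed to 5770 and 9147 TPM in the older and 2120 and 2552 TPM in the younger PKCd mice, and to 7630 and 2764 TPM in the older and 773.7 and 1932 TPM in the younger SST mice. Within each population the sums of the older mice lay above those of the younger. By gene, the median log2 fold change of the 14, older minus younger, was 1.82, and the 1 gene called in edgeR was Jund, an AP-1 factor, which was lower in the older mice (log2 fold change -5.56, adjusted p 0.0374). Jund had 3.87 and 8.18 TPM in the older and 366.1 and 494.1 TPM in the younger PKCd mice, and 15.8 and 3.74 TPM in the older and 52.7 and 451.0 TPM in the younger SST mice. Jund thus went against the rest of its list, in which Egr3 (-0.382) was the only other gene with a negative log2 fold change. Between populations, DESeq2 called 2 of the 14 higher in PKCd libraries and 0 lower, against 3.2% and 0.812% of all tested genes. The part of this response or of depth in the Cebpb and Mef2c values was not tested.

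Whether the difference between populations itself differed by age class was tested as an interaction in edgeR, the only tool used for it. None of the 9 passed, none of all tested genes did, and 1 of the 9 had an unadjusted p under 0.05, against 4.12% of all tested genes. That member was Cebpb, with an interaction of -6.20 ± 2.66 on the log2 scale (SE; unadjusted p 0.0410, adjusted p 1.00). For the other 8 the adjusted p was also 1.00.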

How the data were processed

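RNA of about 1000 sorted cells per library was measured in 8 libraries, 4 per population. The deposited files give an estimated count and a TPM value per transcript, made by the authors with kallisto, per the file headers. Versions in the submitters' processing notes are 0.43.0 for kallisto and 0.7.12 for BWA, with mm10 as the build, and what BWA was used for is not given. TPM in the deposited files is scaled to the same total in each library and keeps no depth.

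Of 30404 transcripts, 30080 were named from RefSeq (GRCm38.p6), 147 from GENCODE and 177 by accession only. Values were summed per gene, and estimated counts were rounded for count tests. The main test was the edgeR 4.0.16 quasi-likelihood test (R 4.3.3), with TMM factors, filtering by population, terms for age class and population, and Benjamini-Hochberg adjustment over 11328 genes. Alternatives were RLE and upper-quartile scaling, no filter, 10 CPM in 4 libraries, DESeq2 1.42.0, limma 3.58.1 (voom, and log2 of TPM with 1 or 0.1 added), no age term, a replicate block, fits of a single age class and fits with 1 library left out. Fits were tested on simulated data. Exact permutation tests used scipy 1.17.1. A count of 0 allows up to 3 counts, and such limits cover counting error only.

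The 9 members and the gene lists were chosen with earlier results of these data known. Beside the members, the text names, per list, up to 4 genes past the threshold or else the tested genes with the smallest p until 2 were named, and the 5 genes most like Spi1 and Mef2c in pattern. Some of those picks, of lists given only by their sums, are not named, and 1 of the other macrophage factors is not reported here. Cbfb, Jund, Egr3, Cdh5, Acta2, Vtn and border macrophage markers other than Pf4 and Mrc1 were named after their values were seen.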

Additional observations from a re-analysis of the deposited data

Results flagged for a closer look

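In each group of 4 libraries, the gap between the most extreme library and its nearest neighbour was divided by the range of the group. Of 18 groups (9 genes in each population), 3 had a ratio above Dixon's critical value for 4 samples. That value flags about 1 in 20 groups of normally distributed values. TPM cannot fall below 0, and the SD exceeded the mean in each of the 3 groups, so this rate may not hold here. All 3 were SST groups with SST replicate 1 on top, so they rest on the same library. For Runx1 the ratio was 0.901, with SST replicate 1 at 4.76 TPM and the next library at 0.471 TPM. For Cebpa it was 0.8947, with 2.44 TPM against 0.26 TPM. For Cebpb it was 0.8382, with 62.1 TPM against 11.2 TPM. SST replicate 1 also had the highest microglia marker sum of the SST libraries, 5621 TPM against 467.4 to 1568 TPM in the other 3. Without it, the log2 fold change of Cebpb was -0.67 and those of Runx1 and Cebpa were 6.99 and 7.47, and none of the 3 was called in edgeR.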

How the results depend on the processing

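The difference between populations was positive under all 20 alternatives for 8 members and under 15 of 18 for Cebpb. Cebpb was -0.29 without PKCd replicate 1, -0.67 without SST replicate 1 and -1.04 without SST replicate 2, within a range of -1.04 to 1.52 with 1 library left out, and it was 4.54 in limma-voom, 2.67 in the younger mice alone and 2.45 with no age term. Of the 9 members, 0 were called in the main edgeR test, 4 with no filter, 7 in DESeq2, 3 with limma on log2(TPM + 1), 1 with log2(TPM + 0.1), and 0 under the other 16 alternatives. Over all genes, 32 were higher and 0 lower; the counts were 218 and 51 with no filter, 362 and 92 in DESeq2, 137 and 10 with log2(TPM + 1), 66 and 2 with log2(TPM + 0.1), and 0 higher in each age class alone. With 1 library left out, 10 to 52 genes were higher and 0 to 1 lower, with 14, 21, 10 and 17 higher without PKCd replicates 1 to 4 and 52, 10 and 13 without SST replicates 1, 3 and 4. The cause was not tested. The replicate block gave 24 genes higher, 0 lower and 0 members, and the numbers only name samples: same-numbered libraries correlated at 0.076, 0.124, 0.061 and 0.174 in their deviations from the population means, and not every library correlated best with its own number.

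For age, 1 member (Cebpb) was called with no filter and in DESeq2, and 0 under the other 14 alternatives. The sign turned for Runx1 (0.82 in voom, 0.31 and 0.12 with 1 and 0.1 added to TPM, -2.24 to 1.85 with 1 library left out), Irf5 (0.24 with 0.1 added, -1.52 to 0.68 with 1 left out), Sall1 (-1.15 to 0.033) and Irf8 (-0.51 to 1.74). RLE scaling moved the median of all genes for age to -0.06, against -0.16 with TMM. Depth limits the older libraries, where 1 to 3 counts can stand for a gene.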
